A study of Arabidopsis thaliana with 10 samples.

Results

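R2R3 MYB proteins are plant transcription factors that bind DNA through a pair of MYB repeats, and they form one of the largest regulator families of Arabidopsis. They are known for control of flavonoid, glucosinolate, lignin, wax and suberin synthesis, of trichome and root hair fate, of anther and pollen development and of drought responses, and each of these roles belongs to a small subgroup of related proteins. The genes described here are all protein-coding TAIR10 genes whose primary symbol is MYB followed by a number, except a pair of secondary wall genes that were set aside from the 115 symbols of this form. This gave 113 members among 27444 protein-coding genes on the 5 nuclear chromosomes. A member was placed in a loop list when an anchor of that list overlapped its gene region, which ran from 1 kb upstream of the transcription start site to the gene end.

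The study mapped chromatin loops in the aerial part of 2-week-old seedlings of wild-type Col-0 by ChIA-PET, which joins DNA ends held together by an immunoprecipitated protein and reads each joined pair as a paired-end tag (PET). Antibodies against 5 targets were used, each on 2 biological replicates: H3K4me3 and RNAPII (RNA polymerase II), which mark active promoters and transcribed genes, H3K4me1, a mark of transcribed gene bodies, H3K27me3, the mark laid down by Polycomb repressive complex 2 over silent developmental genes, and H3K9me2, a mark of heterochromatin. A loop is a pair of regions (anchors, placed at ChIP-seq peaks) joined by more PETs than chance pairing would give. The authors pooled the replicates into 1 list per antibody, so no value below has a replicate spread and no test between lists was possible. Whole shoots mix many cell types, so a gene looped in one list may be looped in another list in other cells, and fewer cells with a loop cannot be told apart from a weaker loop in each cell.

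The 5 lists held 14465 loops for H3K4me3, 13633 for RNAPII, 13355 for H3K4me1, 6310 for H3K27me3 and 11508 for H3K9me2 on the nuclear chromosomes. The smallest PET count kept within a chromosome was 6 for H3K4me3 and H3K4me1, 5 for H3K27me3 and H3K9me2 and 4 for RNAPII. Percentages are given with exact 95% Clopper-Pearson intervals, which cover counting error only.

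The MYB genes were found mainly in the H3K27me3 list. In that list 62 of 113 members lay at an anchor (54.9%, interval 45.2 to 64.2), against 19% of all protein-coding genes. The active lists held fewer of them than of genes at large. H3K4me3 anchors met 14 members (12.4%, interval 6.94 to 19.9) against 43.5% of all genes, and H3K4me1 anchors met 9 (7.96%, interval 3.71 to 14.6) against 33.3%. RNAPII anchors met 23 members (20.4%, interval 13.4 to 29), and the share of all genes, 27.1%, fell within that interval. With loops of FDR below 0.001 alone, RNAPII anchors met 14 members (12.4%, interval 6.94 to 19.9) against 20.3% of all genes, which lay above the interval. No member lay at an H3K9me2 anchor, against 1.42% of all genes (0.732% by anchor midpoint, 0.638% with 5 or more loops and 1.16% in that list alone). The exact interval for 0 of 113 runs up to 3.21%.

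**Figure D1:**
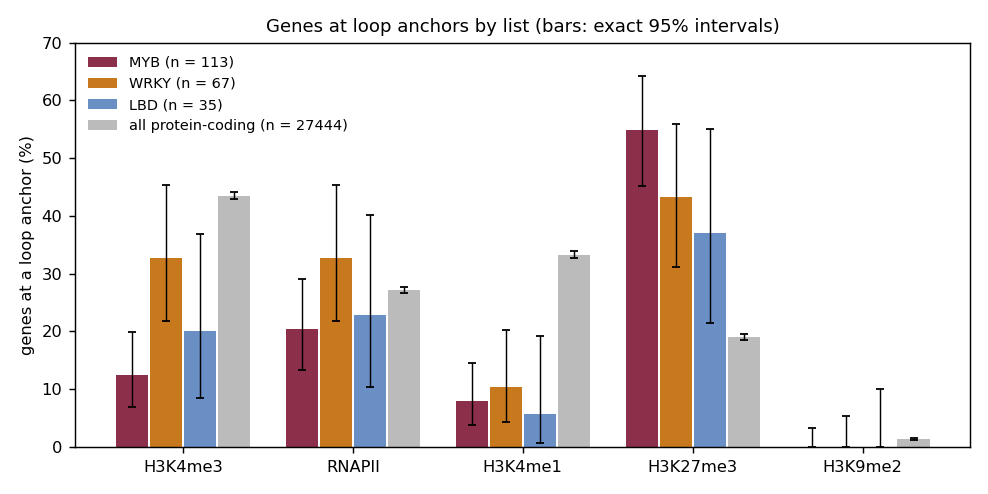
Percent of genes whose region overlaps a loop anchor (vertical axis) in each of the 5 lists (horizontal axis), for MYB members, WRKY genes, LBD genes and all protein-coding genes; error bars are exact 95% intervals. The MYB bar stands at 54.9% for H3K27me3 and at 12.4% for H3K4me3, against 19% and 43.5% of all genes.

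Members were also sorted by class. An active list alone held 25 members (22.1%), against 58.4% of all genes. The H3K27me3 list alone held 56 (49.6%, interval 40 to 59.1), against 13.5%. Both kinds of list held 6 (5.31%), against 5.55%. No list held 26 (23%), close to the 21.4% of all genes. Members were shorter than genes at large, with a median length of 1762 bp against 2078 bp. Among the 5129 protein-coding genes of 1474 to 2021 bp, the middle range of member lengths, 44.5% met H3K4me3 anchors, 28.2% RNAPII anchors, 21.3% H3K4me1 anchors and 20.9% H3K27me3 anchors.

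The WRKY genes, regulators of defence and senescence, and the LBD genes, regulators of organ boundaries and lateral roots, gave a scale for the MYB values. H3K27me3 anchors met 29 of 67 WRKY genes (43.3%, interval 31.2 to 56) and 13 of 35 LBD genes (37.1%, interval 21.5 to 55.1), and both intervals overlapped that of the MYB genes. H3K4me3 anchors met 32.8% of WRKY genes (interval 21.8 to 45.4), above the upper bound of 19.9% for the MYB genes. The difference between families was not tested, because each family was counted on the same single list.

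H3K27me3 anchors lay over the MYB genes themselves. The 62 members stood at 63 anchors, and the median anchor covered 90.9% of the gene region it met. For 26 members the anchor covered the whole region. For 44 members an anchor had its midpoint inside the gene region, which is 38.9% of the 113, against 8.92% of all genes by the same stricter rule. Of the 65 pairs of anchor and member, 32 involved an anchor that met no other protein-coding gene. By this rule the RNAPII list held 15 of the 113 members (13.3%) against 16.5% of all genes, the H3K4me1 list 5 (4.42%) against 24.1% and the H3K4me3 list 14 (12.4%) against 40.2%. Member anchors of the H3K27me3 list were wider than its other anchors, with a median of 4254 bp against 3129 bp in the whole list, and held a median of 2411 tags against 1640; the part of width and tag number in the count of members was not tested.

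**Figure D2:**
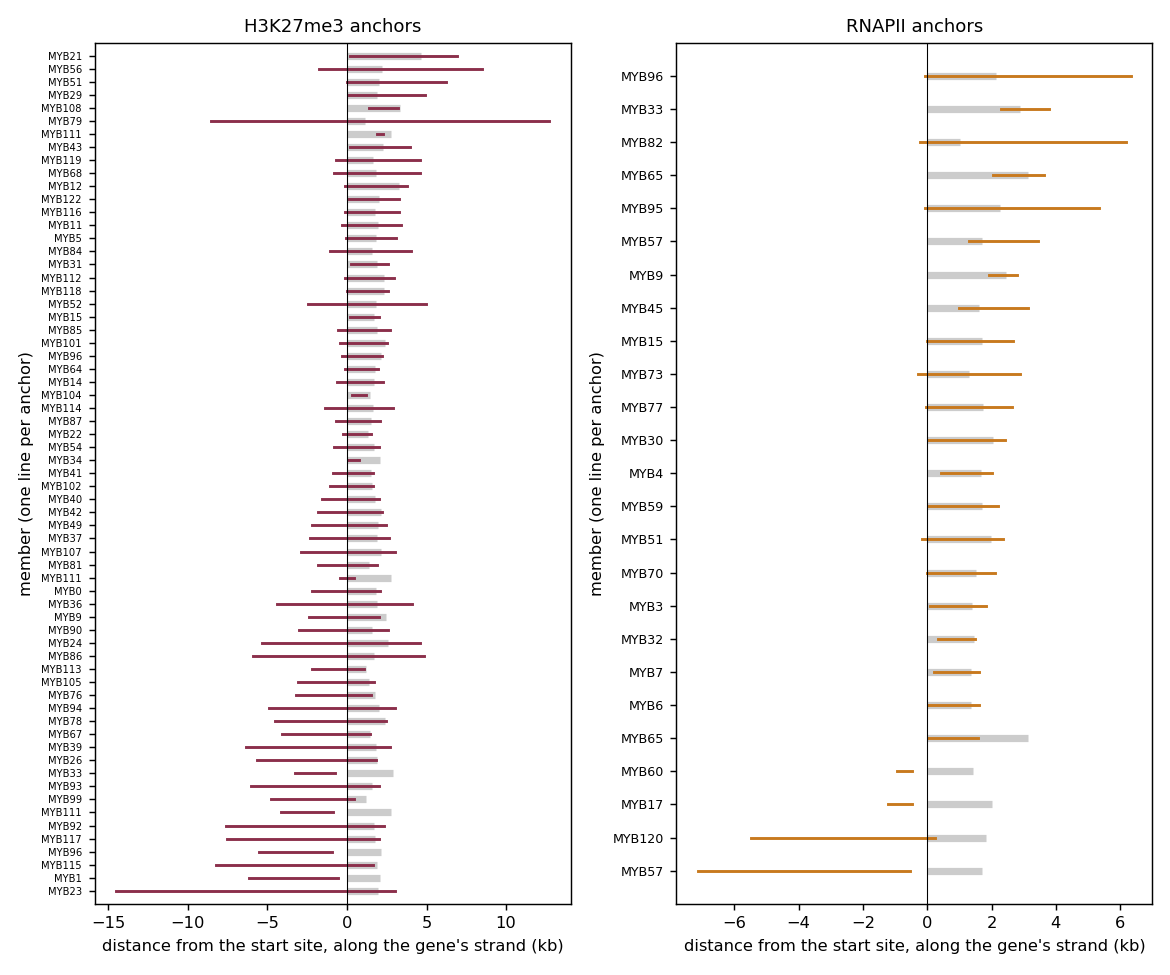
Extent of each anchor that meets a member (coloured lines) in the H3K27me3 list (left) and the RNAPII list (right), in kb from the start site along the gene's strand; grey bars show the gene. Most H3K27me3 anchors cross the whole gene, whereas RNAPII anchors of MYB120, MYB60, MYB17 and the larger of the pair at MYB57 lie mostly or wholly upstream of the start site.

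Loop numbers differed widely between members. In the H3K27me3 list the median member at an anchor had 4 loops (all genes at an anchor, 3) and the highest had 27. Members with 5 or more loops numbered 24 of 113 (21.2%), against 7.82% of all genes. In the RNAPII list 9 members had 5 or more loops (7.96%), against 11.5% of all genes. In the H3K4me1 list the number was 3 (2.65%), against 10.2%. In the H3K4me3 list it was 0, against 8.8%, and no member had more than 3 loops there. These shares also depend on how many genes lay at an anchor at all. Among genes at an anchor alone, 24 of 62 members and 2145 of 5224 genes had 5 or more H3K27me3 loops. For RNAPII these were 9 of 23 members and 3143 of 7450 genes. For H3K4me1 they were 3 of 9 and 2801 of 9145, and for H3K4me3 0 of 14 and 2415 of 11951.

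**Figure D3:**
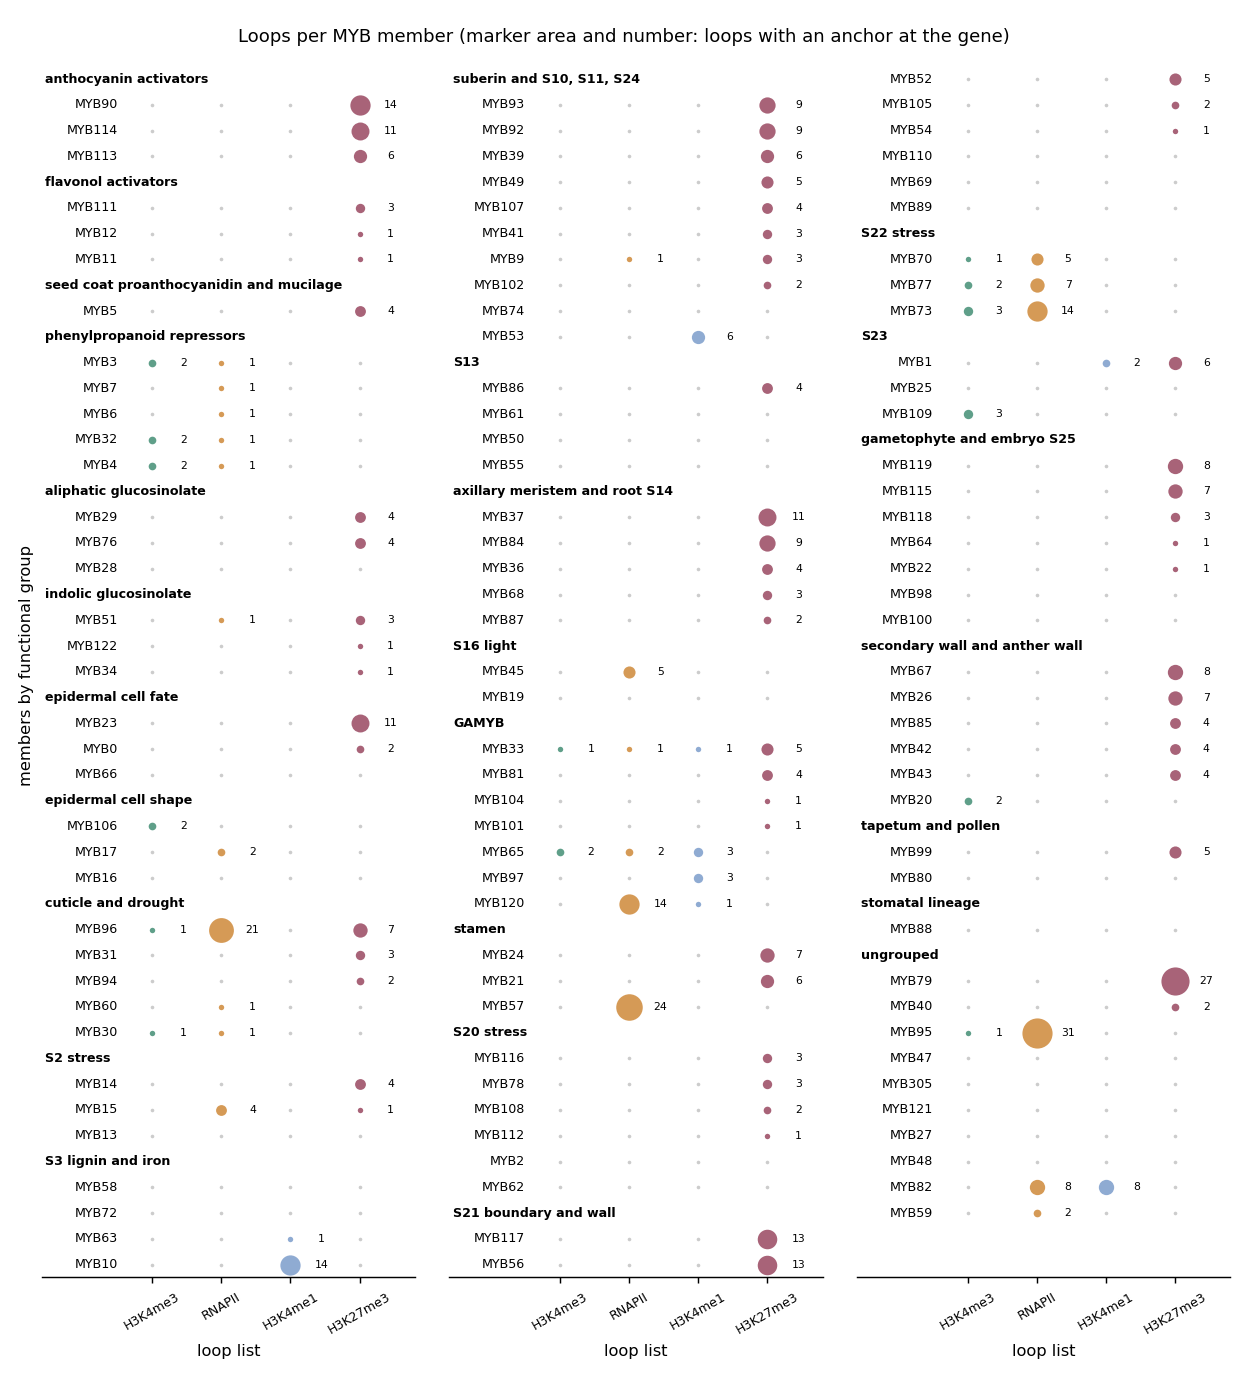
Loops per member in the H3K4me3, RNAPII, H3K4me1 and H3K27me3 lists (columns), with members ordered by functional group; marker area and the number beside it give the loops, and small grey points mark none. The anthocyanin, flavonol and S14 groups show H3K27me3 loops alone, and the phenylpropanoid repressors and S22 show active loops alone.

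The anthocyanin activators stood out as a cluster of genes looped to each other. MYB113 (chr1:24753589-24754761), MYB114 (chr1:24757298-24758953) and MYB90 (chr1:24763941-24765541), which switch on anthocyanin pigment genes together with bHLH and WD40 proteins, lie on the same strand within 12 kb. MYB113 had 6 H3K27me3 loops with 82 PETs in all. MYB114 had 11 loops with 128 PETs. MYB90 had 14 loops with 192 PETs. None of the 3 met an active anchor.

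Each gene of this cluster was joined to both others. The MYB114 and MYB90 anchors were joined by 37 PETs (5.65 kb, FDR 1.33e-45), the MYB113 and MYB90 anchors by 19 (10.7 kb, FDR 2.84e-21) and the MYB113 and MYB114 anchors by 18 (5.03 kb, FDR 2.13e-23). All 3 also shared 2 outside partners. The anchor over RHD6, a bHLH factor of root hair formation, met MYB90 with 35 PETs at 39.1 kb, MYB113 with 15 and MYB114 with 8. The anchor over the beta-glucosidase gene BGLU22 met MYB90 with 17 PETs, MYB114 with 13 and MYB113 with 9.

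The anchors of these tandem genes were compared base by base, and the part of shared sequence in the PET counts was not tested. The longest exact run shared by the MYB114 and MYB90 anchors was 77 bases, by MYB113 and MYB90 34 bases and by MYB113 and MYB114 26 bases. The 77-base run is printed here from the reference genome because it is the longest stretch that these joined anchors have in common. It covers chr1:24757403-24757479 in MYB114 and chr1:24764042-24764118 in MYB90, with 10 bases before the start codon in lower case and the first 67 coding bases in capitals.
MYB114 and MYB90 shared run: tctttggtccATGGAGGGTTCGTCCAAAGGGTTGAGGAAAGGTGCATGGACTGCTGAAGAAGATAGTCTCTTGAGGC

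The 250 bases before each start site are printed for the 3 genes, since their anchors cover them and the genes loop together. Capitals mark runs of 12 or more bases found in another promoter of the cluster. They make up 64 bases in MYB114, 55 in MYB90 and 14 in MYB113, and the rest of each promoter holds no shared run of that length.
MYB113 promoter, chr1:24753339-24753588, + strand: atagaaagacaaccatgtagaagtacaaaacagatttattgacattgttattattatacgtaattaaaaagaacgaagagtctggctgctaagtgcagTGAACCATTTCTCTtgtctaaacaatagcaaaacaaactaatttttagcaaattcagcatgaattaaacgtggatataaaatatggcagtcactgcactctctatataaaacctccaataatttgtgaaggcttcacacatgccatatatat
MYB114 promoter, chr1:24757048-24757297, + strand: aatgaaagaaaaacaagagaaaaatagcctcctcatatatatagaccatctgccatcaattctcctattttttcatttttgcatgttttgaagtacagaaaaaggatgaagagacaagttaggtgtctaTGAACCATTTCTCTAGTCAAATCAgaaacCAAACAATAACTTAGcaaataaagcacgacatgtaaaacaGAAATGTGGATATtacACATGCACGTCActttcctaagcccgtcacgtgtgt
MYB90 promoter, chr1:24763691-24763940, + strand: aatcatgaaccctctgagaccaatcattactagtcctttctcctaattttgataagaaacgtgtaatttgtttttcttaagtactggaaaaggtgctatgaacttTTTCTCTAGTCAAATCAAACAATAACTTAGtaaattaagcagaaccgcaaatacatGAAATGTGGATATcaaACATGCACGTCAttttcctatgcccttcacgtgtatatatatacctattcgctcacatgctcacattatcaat

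The other flavonoid regulators were also in the H3K27me3 list alone, with fewer loops. MYB111 had 3 loops, and MYB11 and MYB12 had 1 each. These 3 genes activate the early steps that lead to flavonols. The loop of MYB12 carried 10 PETs and led to the anchor over CKI1, a histidine kinase gene of the female gametophyte, at 14.8 kb. MYB5, a regulator of the seed coat, had 4 loops. Among the enzyme genes of this pathway, 9 of 13 were in active lists alone, where 58.4% of all genes are, 1 in the H3K27me3 list alone (F3'H) and 3 in none. CHS, the entry enzyme, had 2 H3K4me3 loops and 6 H3K4me1 loops, and DFR, the first enzyme committed to anthocyanins, had 2 H3K4me3 loops.

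The repressors of the same pathway stood in the active lists. MYB3, MYB4, MYB6, MYB7 and MYB32, subgroup 4 proteins that lower phenylpropanoid synthesis, were all 5 in active lists alone. Of all genes, 58.4% are in that class. Each of the 5 repressors had a single RNAPII loop of 4 to 7 PETs. The RNAPII loops of MYB3, MYB4, MYB6 and MYB32 carried 4 or 5 PETs. A minimum of 6 PETs would remove these loops and leave MYB6 in no list. MYB3, MYB4 and MYB32 also had 2 H3K4me3 loops each, with 17, 19 and 18 PETs in all. The loop of MYB7 with 7 PETs led to ADF5, an actin depolymerizing factor, at 10.3 kb. MYB4 was joined in the H3K4me3 list to KAK, a ubiquitin ligase gene that limits trichome branching, by 10 PETs at 5.41 kb. Of the lignin and secondary wall cellulose genes, 13 of 15 were in active lists alone, 1 (CESA7) in both kinds and 1 (CESA8) in none. The shares of all genes in these classes were 58.4%, 5.55% and 21.4%.

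Regulators of the secondary wall and anther wall stood with the H3K27me3 list. MYB26, MYB42, MYB43, MYB67 and MYB85 were in that list alone with 4 to 8 loops, and MYB20 was in the H3K4me3 list alone with 2 loops, to GSR2 and ATX1. MYB26, needed for wall thickening in the anther, shared an anchor with AT3G13898 and met the floral gene SEP3 on chromosome 1 with 10 PETs (FDR 0.0451). MYB43 met the anchor over IRX15, a gene of xylan synthesis, on chromosome 3 with 7 PETs. At an FDR of 2.55e-07 this loop had the lowest FDR of all member loops between chromosomes in the H3K27me3 list. MYB67 met FUS3, a regulator of embryo maturation, with 8 PETs and LOB, the founding LBD gene, with 9. MYB58 and MYB72 of subgroup 3 were in no list, while MYB63, an activator of lignin genes, had 1 H3K4me1 loop.

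The MYB gene with most H3K27me3 loops was MYB79 (chr4:7836644-7837763), whose role is little known. It had 27 loops with 551 PETs, of which 222 lay within its own anchor. That anchor was 21238 bp wide, the gene region filled 9.98% of it, and it also met AT4G13490. Its strongest outside loop carried 47 PETs, at 54.7 kb (FDR 4.65e-16). It met the auxin synthesis gene YUC2 with 15 PETs at 114 kb and MYB42 with 10 PETs at 514 kb (FDR 0.00676). Of its 27 loops, 13 ran to other chromosomes and 9 had an FDR below 0.001.

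MYB90, described above, came next with 14 loops, followed by MYB56 and MYB117. MYB56 had 13 loops with 272 PETs from an anchor of 10207 bp shared with WOX12, a homeobox gene of root founder cells. That anchor had 31.5% of its length in the MYB56 region and its midpoint outside it, and WOX12 had 13 loops as well. The strongest loop of MYB56, of 67 PETs, led to the peroxidase region AT5G17820 at 9.12 kb. MYB117 (LOF1), which sets organ boundaries, had 13 loops with 232 PETs and met FEZ, a NAC gene of root cap stem cells, with 24 PETs at 43 kb. The MYB117 anchor of 9578 bp had 28.8% of its length in the gene region and its midpoint outside it. It also met AT1G26773, which had 13 loops as well. MYB23, which acts in trichome branching, had 11 loops with 436 PETs, of which 219 lay within its anchor of 17533 bp. That anchor began at -14504 bp from the MYB23 start site and also met 3 other genes. The other members of subgroup 21 in the list were MYB52 with 5 loops, MYB105 with 2 and MYB54 with 1, whereas MYB69, MYB89 and MYB110 were in no list.

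MYB23 belongs to a run of 4 MYB genes within 50 kb of chromosome 5, with MYB24, MYB115 and MYB22, and all 4 were in the H3K27me3 list alone. MYB24 promotes stamen maturation, MYB115 belongs to the embryo subgroup S25, and both lay in the same 9908-bp anchor with 7 loops and 246 PETs. That anchor was joined to the MYB23 anchor by 109 PETs at 19.5 kb (FDR 1.65e-71), the highest PET count of any loop between members. MYB22 had 1 loop of 5 PETs. A related run on chromosome 3 holds MYB118, the S25 relative of MYB115, and MYB21, the stamen relative of MYB24. Their anchors were joined by 19 PETs at 19.8 kb (FDR 6.57e-17). The trichome gene MYB0 (GL1), the relative of MYB23, lies farther along the same chromosome and had 2 loops of 7 PETs, to FUS3 at 508 kb and to the WRKY29 region of chromosome 4. The longest exact run shared between the joined anchors was 17 bases on chromosome 5 and 15 bases on chromosome 3.

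**Figure D4:**
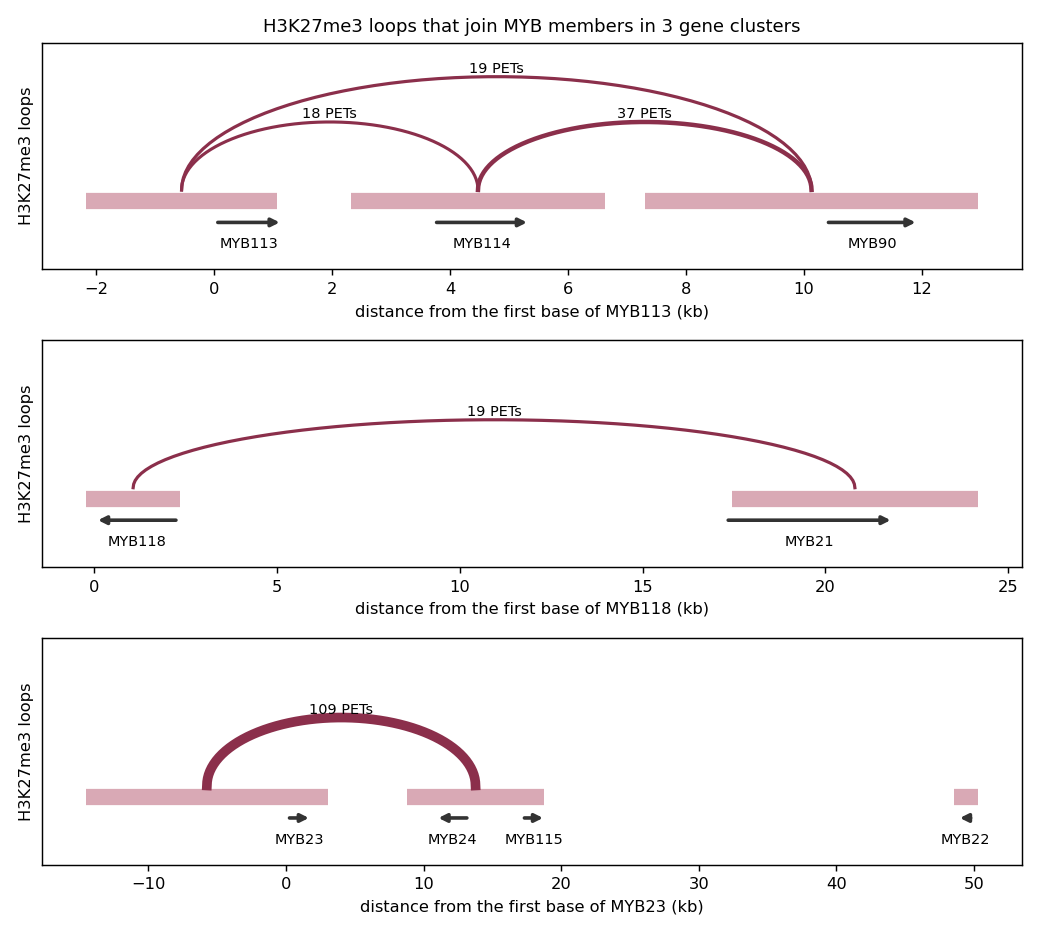
H3K27me3 loops between members in 3 gene clusters, in kb from the first base of the leftmost member; pale bars are member anchors, arrows are genes and arcs are loops labelled with PET counts. The arc of 109 PETs joins MYB23 to the anchor over MYB24 and MYB115, and the 3 anthocyanin genes are joined pairwise by 18, 19 and 37 PETs.

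In all, 9 loops joined different members, and all 9 were in the H3K27me3 list. Beside the 5 loops in the 3 clusters above, the tandem GAMYB relatives MYB104 and MYB81 were joined by 5 PETs at 6.03 kb. MYB99 and MYB96 were joined by 8 PETs at 52.3 kb (FDR 0.000786), but through an upstream anchor that covered only 0.857% of the MYB96 region. When 0.5 of the anchor or region had to be covered, 8 of the 9 loops were left. A long-range loop of 9 PETs (1393 kb, FDR 0.00878) joined MYB92 and MYB40. The remaining loop was that of MYB42 and MYB79. No loop of the H3K4me3, RNAPII or H3K4me1 list joined 2 members.

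The axillary meristem and root genes of subgroup 14 were all 5 in the H3K27me3 list alone. MYB37 (RAX1) and MYB84 (RAX3), which start axillary meristems, had 11 loops with 194 PETs and 9 loops with 128 PETs. MYB36, which drives formation of the Casparian strip in the root endodermis, had 4 loops, MYB68 had 3 and MYB87 had 2. The strongest outside loop of MYB84 led to ACS9, of MYB68 to ACS5 and the only loop of MYB87 within its chromosome to ACS8. These genes encode ACC synthase, the enzyme of the rate-limiting step of ethylene synthesis, and each lies directly next to its MYB gene. The loops carried 51, 18 and 5 PETs at 5.63 kb, 5.98 kb and 5.88 kb (FDR 2.58e-64, 4.72e-20 and 0.00187). The loops of MYB68 and MYB87 were picked out after their values were seen, as were the partners named for MYB7, MYB12, MYB20, MYB26, MYB43, MYB67, MYB107 and MYB122.

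MYB37 was joined to a pair of nearby glucosinolate genes, of which MAM1 lies directly next to it. MAM1 and MAM3 (annotated IMS2), which extend the side chain of aliphatic glucosinolates, met its anchor with 31 PETs at 8.54 kb (FDR 6.08e-34) and 35 PETs at 24.1 kb (FDR 2.63e-28). The regulators of that pathway were elsewhere. MYB29 and MYB76 shared a single H3K27me3 anchor with 4 loops of 5 to 7 PETs, and MYB28, the main activator of the pathway, was in no list. Of 12 aliphatic glucosinolate genes, 6 were in the H3K27me3 list alone, 3 in active lists alone, 1 in both and 2 in none. The shares of all genes in these classes were 13.5%, 58.4%, 5.55% and 21.4%.

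The indolic glucosinolate regulators MYB34, MYB51 and MYB122 were all 3 in the H3K27me3 list, with 1, 3 and 1 loops. MYB122 was joined by 6 PETs at 11.2 kb to the anchor over SOT16 and CYP78A10, and SOT16 catalyses the last step of indolic glucosinolate synthesis. MYB51 also had an RNAPII loop of 4 PETs. Of 7 indolic enzyme genes, 3 were in active lists alone, 3 in both and 1 in none, where 64% of all genes are in an active list.

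Suberin and related genes formed the largest group. Of 10 members, 7 were in the H3K27me3 list alone, MYB9 in both kinds, MYB53 in the H3K4me1 list alone and MYB74 in none. MYB92 and MYB93 had 9 loops each with 179 and 88 PETs, MYB39 had 6 with 171, MYB49 had 5 with 57, MYB107 had 4 with 78, MYB41 had 3 with 28 and MYB102 had 2 with 19. MYB92 was joined to the anchor over FLC, the repressor of flowering that Polycomb silences after cold, by 16 PETs at 52.5 kb (FDR 0.0428). The strongest outside loop of MYB107 carried 46 PETs at 8 kb (FDR 1.06e-50). Of 14 wax and suberin genes, 6 were in the H3K27me3 list alone, 3 in both, 4 in active lists alone and 1 in none. The shares of all genes in these classes were 13.5%, 5.55%, 58.4% and 21.4%. CYP86A1, a fatty acid hydroxylase of suberin, shared its anchor with MYB119, a regulator of the female gametophyte.

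Stress and cuticle genes were spread over the classes. In the cuticle and drought group MYB30, an activator of the hypersensitive response, and MYB60, which acts in guard cells, were in active lists alone, MYB31 and MYB94 in the H3K27me3 list alone and MYB96 in both. All 3 members of S22, MYB70, MYB73 and MYB77, were in the H3K4me3 and RNAPII lists and not in the H3K27me3 list. In S20, a group of stress and hormone response genes, 4 of 6 were in the H3K27me3 list alone (MYB78, MYB108, MYB112 and MYB116) and MYB2 and MYB62 were in none. In S2, MYB14 was in the H3K27me3 list alone, MYB15 in both and MYB13 in none.

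Genes of reproductive organs were spread over the classes. In S25, MYB119, MYB115, MYB118, MYB64 and MYB22 were in the H3K27me3 list alone, with 8, 7, 3, 1 and 1 loops. MYB98, the synergid regulator, and MYB100 were in no list. MYB99, a tapetum gene, had 5 loops and met the anchor over MS1, a PHD-finger regulator of the tapetum, 17663 kb away with 11 PETs (FDR 0.00708). MYB80, another tapetum gene, was in no list. Of the 7 GAMYB genes, which act in gibberellin responses and anthers, MYB81, MYB101 and MYB104 were in the H3K27me3 list alone, MYB65, MYB97 and MYB120 in active lists alone and MYB33 in both.

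The remaining groups were small. MYB106 and MYB17, genes of epidermal cell shape, were in active lists alone with 2 loops each, and MYB16 was in none. MYB109 of S23 had 3 H3K4me3 loops, with SBPASE of the Calvin cycle among its partners, MYB1 was in both and MYB25 in none. In S13 MYB86 had 4 H3K27me3 loops and MYB50, MYB55 and MYB61 were in none. In S16 MYB45 had 5 RNAPII loops and MYB19 was in none. The root hair and trichome fate gene MYB66 (WER) and the stomatal gene MYB88 were in no list. Of the ungrouped genes, MYB79 and MYB40 were in the H3K27me3 list, MYB59, MYB82 and MYB95 in active lists and MYB27, MYB47, MYB48, MYB121 and MYB305 in none.

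Few members were hubs in the active lists, and several of these shared the anchor with a neighbour. MYB95 (chr1:27975168-27977434) had 31 RNAPII loops, more loops than any other member had in any list, with 486 PETs. Its anchor of 5411 bp began at -72 bp from the start site and ran past the gene end into AT1G74440. Of the anchor length 43.2% lay in the MYB95 region, and the midpoint lay outside it. AT1G74440 had 31 RNAPII loops as well. The strongest loop carried 98 PETs to AT1G74450 at 6.02 kb (FDR 1.08e-74). It met ERF4, an ethylene response factor, on chromosome 3 with 32 PETs (FDR 0.0252). Of its 31 loops, 12 ran between chromosomes and 3 had an FDR below 0.001. Its H3K4me3 list entry was 1 loop of 6 PETs.

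MYB57, a stamen gene like MYB21 and MYB24, came next with 24 RNAPII loops and 203 PETs, but its anchors lay beside the gene. The first ran from -7128 bp to -536 bp from the start site over DRH1 and PPT2, with 7.05% of its length in the MYB57 region. The second met the gene end and AT3G01520. Neither anchor had its midpoint in the gene region. MYB120 had 14 RNAPII loops from an anchor shared with AT5G55040, and 21.6% of that anchor lay in the gene region. MYB82 had 8 RNAPII loops and 8 H3K4me1 loops from anchors that also met AT5G52580, with 19.1% and 3.17% of their lengths in its region. MYB10, which acts in iron deficiency, had 14 H3K4me1 loops, and the larger of its anchors was over PIE1, a chromatin remodeller gene, with 3.62% of the anchor in the MYB10 region.

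The S22 genes had 61.1% to 68.7% of each gene region under an RNAPII anchor, but only the anchor of MYB70 met no other gene. The MYB73 anchor had 50% of its length in the gene region, its midpoint outside it, and also met HMA1. The MYB77 anchor also met AT3G50050. HMA1 and AT3G50050 had 14 and 7 RNAPII loops, as many as the MYB genes beside them. MYB73 had 14 RNAPII loops with 115 PETs and 3 H3K4me3 loops with 21 PETs, MYB77 had 7 RNAPII and 2 H3K4me3 loops, and MYB70 had 5 and 1. These proteins act in auxin and abscisic acid responses. MYB73 on chromosome 4 was joined to the anchor over MYBR1 (MYB44), its relative in the same subgroup on chromosome 5, by 13 RNAPII PETs (FDR 0.0391). MYBR1 is not a member because its primary symbol is not of the MYB-number form, and that anchor also met CYP81G1 and HOS15. The anchor over A/N-InvC and SFR2 was met by MYB70 with 6 PETs and by MYB15 with 7, and it had 54 loops in all.

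The 6 members in both kinds of list differed in how the anchors lay. This class fell to 4 when 0.5 of the anchor or region had to be covered, and also with loops of FDR below 0.001 alone. MYB15, a regulator of cold response and defence lignin, had RNAPII and H3K27me3 anchors over the same gene, covering 63.7% and 55.2% of its region, with 4 and 1 loops. Both MYB15 anchors also met AT3G23255, which had 4 RNAPII loops and 1 H3K27me3 loop as well. MYB51 had an RNAPII anchor over 72.2% and an H3K27me3 anchor over 65.6%, with 1 and 3 loops. That H3K27me3 anchor had 31.6% of its length in the MYB51 region and its midpoint outside it. It also met GAUT11, which had 3 H3K27me3 loops as well. MYB9 had anchors over 15.3% and 86.8%, with 1 RNAPII loop and 3 H3K27me3 loops. DOT2 lay at both of these anchors and had as many loops of each kind. MYB33 had 1 loop in each active list and 5 H3K27me3 loops. Its H3K27me3 anchor lay from -3240 bp to -735 bp from the start site, met GPAT7 and covered 6.83% of the region. MYB1 likewise had its H3K27me3 anchor upstream, over 14.4% of its region, with 6 loops, and an H3K4me1 anchor with 2 loops.

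MYB96 (chr5:25078991-25081141), which activates cuticular wax synthesis in drought, was the member with most loops of both kinds. It had 21 RNAPII loops with 246 PETs, 7 H3K27me3 loops with 45 PETs and 1 H3K4me3 loop with 6 PETs. Its RNAPII anchor covered 70.3% of the gene region, and one H3K27me3 anchor covered 78.4% of it, while a second lay upstream and covered 0.857%. The RNAPII anchor was 6394 bp wide, had 34.7% of its length in the MYB96 region and its midpoint outside it. That anchor also met AT5G62440 and AT5G62460, and the directly flanking AT5G62460 had 21 RNAPII loops as well. RNAPII PETs led to SRO5 and ALDH12A1 at 21.4 kb (33 PETs, FDR 2.72e-09) and to CDF1, a repressor of flowering, at 8.13 kb (21 PETs, FDR 1.26e-19). H3K27me3 PETs led to MYB99 and, on chromosome 1, to LEC2, a regulator of embryo development (8 PETs, FDR 0.047). The H3K27me3 loop of highest PET count, 9 PETs at 4.22 kb, joined its own pair of anchors. The MYB96 promoter, printed here because this gene carries anchors of both kinds, holds runs of the GAGAGA repeat, in capitals. Of the 6 members in both kinds of list only MYB96 held the repeat. In the same 250 bases 20.6% of all protein-coding promoters held it.
MYB96 promoter, chr5:25081142-25081391, - strand: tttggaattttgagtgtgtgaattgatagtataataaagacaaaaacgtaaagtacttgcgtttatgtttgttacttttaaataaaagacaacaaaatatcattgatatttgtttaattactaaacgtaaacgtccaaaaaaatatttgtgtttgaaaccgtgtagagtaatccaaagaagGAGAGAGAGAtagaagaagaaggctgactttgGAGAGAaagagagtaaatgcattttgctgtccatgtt

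Promoters were searched for letters known from Polycomb recruitment and from MYB targets. These were the telobox AAACCCTA and the GAGAGA repeat, which factors that recruit Polycomb repressive complex 2 bind, and the AC elements ACCAACC and ACCTACC, which MYB proteins of lignin synthesis bind. Each was searched on both strands from 250 bases before to 50 after the start site, and none of the 4 strings contains another. The telobox was in 3 of 113 member promoters (2.65%, interval 0.551 to 7.56), against 6.22% of all protein-coding promoters. Of 56 members in the H3K27me3 list alone 2 held it, and of 25 in active lists alone 1. GAGAGA was in 36 member promoters (31.9%, interval 23.4 to 41.3), against 29.2% of all. It was in 18 of the 56 (32.1%) and 8 of the 25 (32%), and the intervals of these classes (20.3 to 46 and 14.9 to 53.5) overlapped. In the 250 bases before the start site alone the shares were 16.1% (interval 7.62 to 28.3) and 28% (interval 12.1 to 49.4), and these intervals overlapped too. ACCAACC was in 3 member promoters (2.65%) and ACCTACC in 1 (0.885%), against 3.29% and 1.38% of all promoters. A match is a string of letters and was not shown to be a bound site.

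The 3 telobox promoters are printed with the motif in capitals (in MYB30 it is on the other strand and reads as its complement), because they are the only member promoters with that string in the window. MYB22 and MYB36 were in the H3K27me3 list alone, and MYB30 in active lists alone.
MYB22 promoter, chr5:16177732-16177981, - strand: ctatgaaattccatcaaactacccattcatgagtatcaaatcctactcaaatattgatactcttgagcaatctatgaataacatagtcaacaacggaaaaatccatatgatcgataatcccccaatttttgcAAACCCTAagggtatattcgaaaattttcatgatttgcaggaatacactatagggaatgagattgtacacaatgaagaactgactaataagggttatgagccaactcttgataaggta
MYB36 promoter, chr5:23334517-23334766, + strand: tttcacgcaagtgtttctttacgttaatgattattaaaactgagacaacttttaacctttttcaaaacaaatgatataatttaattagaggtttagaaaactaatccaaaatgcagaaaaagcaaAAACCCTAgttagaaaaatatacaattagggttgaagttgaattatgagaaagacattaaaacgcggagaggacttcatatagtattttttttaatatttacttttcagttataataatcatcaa
MYB30 promoter, chr3:10910882-10911131, + strand: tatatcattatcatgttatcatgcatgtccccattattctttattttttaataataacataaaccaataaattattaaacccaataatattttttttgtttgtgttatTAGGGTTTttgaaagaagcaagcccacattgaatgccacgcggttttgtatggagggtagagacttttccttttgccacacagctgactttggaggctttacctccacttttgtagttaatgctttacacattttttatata

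Loop spans of members were compared with those of each whole list. The intervals treat loops as independent, although loops of 1 member often share an anchor. Of 291 H3K27me3 loops at members, 74 (25.4%, interval 20.5 to 30.8) ran between chromosomes, against 20.4% of the list. MYB79 alone had 13 of these 74, and another 27 of the 291 loops lay within a single anchor. Within chromosomes, 121 of 190 (63.7%, interval 56.4 to 70.5) spanned under 100 kb, against 71.4% of the list, and the median span was 40.3 kb (interval 30.6 to 51.2) against 24.3 kb. RNAPII loops of members ran between chromosomes in 38.9% of 149 cases (interval 31.1 to 47.2), against 42.2% of the list. H3K4me3 loops of members were short, with 23 of 24 under 100 kb (95.8%, interval 78.9 to 99.9) against 71.1% of the list. H3K4me1 loops of members spanned under 100 kb in 12 of 29 cases (41.4%, interval 23.5 to 61.1) against 65.1%, and 10 of the 14 loops of MYB10 were among those 29.

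**Figure D5:**
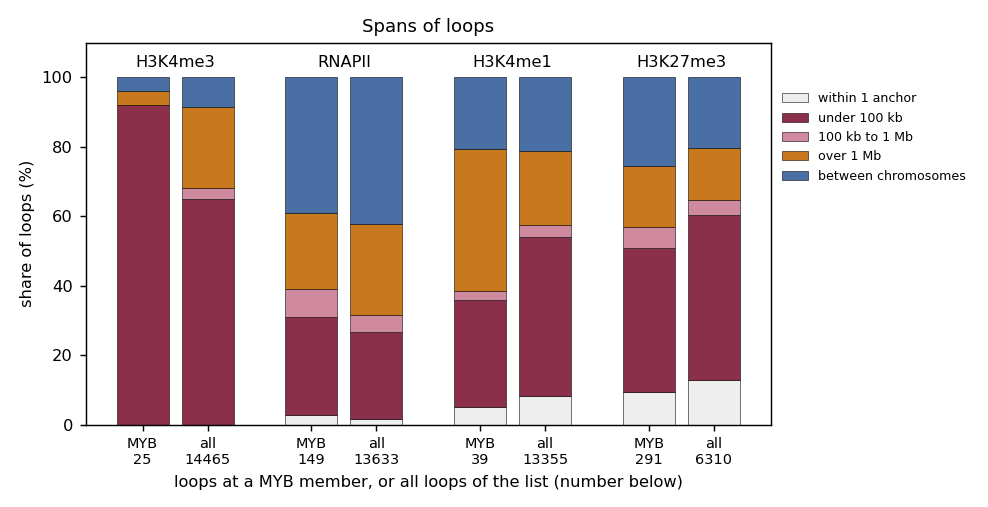
Share of loops by span (stacked, percent) for loops at MYB members and for all loops of each list, with the number of loops under each bar. H3K4me3 loops at members are nearly all under 100 kb, and 25.4% of the H3K27me3 loops at members run between chromosomes.

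The genes that directly flank members were compared with those that flank all genes of a list. Of the 62 members in the H3K27me3 list, 51 (82.3%, interval 70.5 to 90.8) had a directly flanking gene in it, against 90.9% of all genes of that list. An anchor was shared with another protein-coding gene by 33 of the 62 (53.2%, interval 40.1 to 66), against 78.6% of all genes of the list. In the RNAPII list 17 of 23 members (73.9%, interval 51.6 to 89.8) had a flanking gene in it, against 93%, and in the H3K4me3 list 12 of 14 (85.7%, interval 57.2 to 98.2), against 88.1%. In the H3K4me1 list all 9 did (interval 66.4 to 100), against 90.8%. The 56 members in the H3K27me3 list alone had 112 flanking genes. Of these, 37 were in active lists alone (33%), 41 in the H3K27me3 list alone (36.6%), 20 in both (17.9%) and 14 in none (12.5%). The shares of all genes were 58.4%, 13.5%, 5.55% and 21.4%. The 41 include members that flank each other, such as MYB113, MYB114 and MYB90, which were not counted apart. They also include flanking genes that lie at the member's own anchor, such as WOX12 beside MYB56. Such genes are in the list through that anchor and were not counted apart either. Of the 50 genes that flank members in active lists alone, 34 were in active lists alone (68%) and 6 in the H3K27me3 list alone (12%). Of the 52 genes that flank the 26 members in no list, 24 were in active lists alone (46.2%) and 24 in none (46.2%).

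Partner anchors of H3K27me3 loops at members met a gene whose product name marks a transcription factor or DNA-binding protein in 49 of 227 cases (21.6%, interval 16.4 to 27.5), against 16.4% of all anchors of the list. These 227 partner anchors met 459 genes, against 5224 genes at all 3171 anchors of the list. Of the partner anchors 50.2% had 5 or more loops, against 24.4% of the list. The part of gene number and loop number in the share of transcription factors was not tested. Several members shared a partner. The anchor over PMSR3, KUOX1 and PEI1 on chromosome 5 was met by MYB29, MYB76, MYB43 and MYB96, with 5 to 7 PETs each. The anchor over UMAMIT14 on chromosome 2 was met by MYB33, MYB78 and MYB81. FUS3 was met by MYB0 and MYB67. MYB29 and MYB76 lie in the same anchor, so they count as a single partner there, as do MYB24 and MYB115 where they share partners.

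The other components of the MYB complexes were counted in the same way. Of 12 genes for bHLH and WD40 partners, R3 MYB inhibitors and the shared target GL2, 3 were in active lists alone, 1 in the H3K27me3 list alone (GL3), 1 in both (GL2) and 7 in none, against 58.4%, 13.5%, 5.55% and 21.4% of all genes. TTG1, the WD40 protein of these complexes, had 8 H3K4me3 and 8 RNAPII loops. GL3, a bHLH partner in trichomes, was joined to the anchor of MYB119 by 6 PETs at 7235 kb (FDR 0.00704).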

How the data were processed

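ChIA-PET libraries of Col-0 shoots were made by the authors from chromatin cross-linked with EGS and formaldehyde, for 5 antibodies with 2 replicates each, on the TAIR10 genome. The authors ran ChIA-PET Tool V3 with ChIP-seq peaks as given anchors, filtered loops at an FDR of 0.05 and at PET minimums that differed with depth, and pooled the replicates. The deposited lists give a PET count and 2 anchor tag counts per loop and, as a p-value adjusted for multiple testing, the FDR. Pooling hides the spread between replicates, and given anchors restrict loops to peaks.

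Here, anchors were intersected with gene regions of the RefSeq TAIR10.1 annotation, whose nuclear chromosomes contain every anchor, with pandas and scipy (versions 2.3.3 and 1.17.1). The 5 mitochondrial loops were left out. Loop precision is limited by PET counts. The overlap code was tested on simulated data. No test was made, since each antibody had 1 list. Members, groups and lists were chosen with earlier results of these data known. Genes named were the 10 members with most loops per list, members in both kinds of list, members joined to each other, each functional group with its class, and the partners of their 1 to 3 loops of highest PET count; other partners were picked after their values were seen. Alternatives changed the overlap rule, gene region, PET minimum, FDR, member list and motif window. Sequences come from RefSeq TAIR10.1.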

Additional observations from a re-analysis of the deposited data

How the results depend on the processing

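No paired analysis was possible because the replicates were pooled into 1 list per antibody. Across 112 recomputed values, 91 stayed within 1.5 times the count or within the interval of the value reported and 21 did not. The H3K27me3 count of 62 members stayed between 44 and 64 under all 8 alternatives, and no member met an H3K9me2 anchor under any of them. RNAPII members fell from 23 to 13 with a common minimum of 6 PETs within and 8 between chromosomes (11.5%, all genes 18.5%), to 14 with an FDR below 0.001 (12.4%, all genes 20.3%) and to 15 with the anchor midpoint inside the gene region (13.3%, all genes 16.5%). H3K4me1 members fell from 9 to 3 with the region 1 kb before to 0.5 kb after the start site and to 5 with the midpoint rule. With at least 0.5 of the anchor or region covered, 69.2% of H3K4me1 loops within chromosomes spanned under 100 kb, and with the common PET minimum 71.2% of H3K27me3 loops did. With an FDR below 0.001 the share between chromosomes was 0% for H3K4me3 and H3K4me1, 3.33% for RNAPII and 3.79% for H3K27me3, the share under 100 kb was 100% for H3K4me3, RNAPII and H3K4me1 and 95.4% for H3K27me3, and the median H3K27me3 loop number per member was 2. Loops between chromosomes thus rest mainly on FDR values between 0.001 and 0.05. In the window of 250 bases before the start site alone, GAGAGA was in 19.5% of member promoters and 20.6% of all, and in members of the H3K27me3 list alone its share fell from 32.1% to 16.1%, the telobox in 4.49% of all, ACCAACC in 2.69% of all and ACCTACC in 1.16% of all. Protein repeats and bHLH contact motifs were not run, since protein sequences were not used here. A PET count of 4 to 7, the level of many single loops of active-list members, leaves wide counting error.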

Other observations

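A further 10 genes are not members by primary symbol but have a MYB-number name among their synonyms. PAP1 (MYB75), the main anthocyanin activator of seedlings, was in the H3K27me3 list alone with 2 loops and 20 PETs, as were MYB90, MYB113 and MYB114. AtMYB103 was there with 1 loop of 9 PETs. MYBR1 (MYB44) had 43 RNAPII loops with 489 PETs and 3 H3K4me3 loops with 28 PETs, more RNAPII loops than any member. AS1 (MYB91), a leaf polarity gene, had 1 H3K4me3 loop of 8 PETs, HOS10 (MYB8) had 3 with 25 PETs, FLP (MYB124) of the stomatal lineage had 1 of 18 PETs and 1 H3K4me1 loop of 11 PETs, and TDF1 (MYB35) had 1 H3K4me1 loop of 6 PETs. RAX2 (MYB38), LAF1 (MYB18) and TT2 (MYB123) were in no list.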
